A study of Zea mays with 22 samples.

Results

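Gene expression of maize (Zea mays) after 8 h of UV-B at the intensity titled high was compared with control on 2 spotted 2-colour arrays, out of 22 arrays in the series. The pair was picked by its titles, and no measured value entered that choice. On array 1 the RNA of UV-B exposed material was in channel 1 and control RNA in channel 2, and on array 2 the channels were exchanged. The labels name neither the organ, nor the age of the plants, nor the intensity behind the word high. They do not say whether the 2 arrays carry RNA of separate plants, so p-values measure a spread between arrays, which may be technical. Each array had 17296 spots, of which 15853 had a value on array 1 (91.7%) and 15542 on array 2 (89.9%).

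UV-B is the short-wave end of sunlight that reaches plants. It damages DNA and the photosynthetic apparatus, and it is sensed by the photoreceptor UVR8, which induces genes of UV-absorbing phenolic compounds. Strong UV-B also evokes transcripts of pathogen defence, such as chitinases, and lowers those of photosynthesis in many plants. Secreted defence proteins fold in the endoplasmic reticulum, where disulfide isomerases form their cross-links and calnexin holds unfinished glycoproteins.

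All values here are log2 ratios after each array's median was set to 0. Every 3 consecutive spots of 1 of the 8 equal blocks of the table were 1 probe, which gave 5760 probes, 404 of them with 1 gene name for 329 genes. The 3 spots of a probe lay close together, with a median SD of 0.0412 on array 1 and 0.0426 on array 2. The spread between probes was wider, with an SD of 0.267 and 0.275. Intensities were not used here, so no probe could be called dim, and depth has no counterpart on these arrays: their number limits the precision. A positive ratio is read as higher under UV-B by assumption, because the files state no direction. If the whole pair runs the other way, each rise below is a fall and each fall a rise. Array 2 is read as already turned to the direction of array 1.

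At 8 h of high UV-B a small set of probes lay away from 0, with a size that depended on how the arrays were fitted. The chitinase gene chn1 lay further from 0 than any other probe on each array. A limma fit, which took its spread also from the pairs of 2 h high, 4 h medium and 8 h low UV-B on this platform, was used. It found 192 of 5210 tested probes past an adjusted p of 0.05 (3.69%), of which 104 were higher (2.0%) and 88 lower (1.69%). Named probes gave 7 of the higher and 9 of the lower calls among 374 tested. The calls were mostly small: the higher ones had a median of 0.59 and the lower ones of -0.57, and 11 were at least 2-fold higher and 1 at least 2-fold lower in the mean. All 192 had the same sign on both arrays, and 170 were at least 0.3 from 0 on each. The calls were picked on the mean of these same arrays, which largely sets this outcome, so it is no separate check. Without the term for channel orientation 45 of the 192 calls were left, with chn1, PDIL1-2 and psbs1 as the named genes among them. Without array 1 the fit called 10 probes and without array 2 it called 3, and chn1 was the named gene that kept its call in each case. With the channel-swapped array of every regime turned the other way, 0 probes passed in limma, with 168 at an unadjusted p under 0.05.

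Away from the tails the 2 arrays had little in common. Over the 5228 probes with a value on both, Pearson's r was 0.184 and Spearman's rho -0.014, as a description across probes, which share the arrays and are not replicates. The sign was the same in 46.5% of probes. The large ratios behaved otherwise. Of the 50 probes highest on array 1, 43 were above 0 on array 2, where their median was 0.77. Of the 50 lowest on array 1, 39 were below 0 on array 2, with a median of -0.30. Chosen on array 2 instead, 46 of the 50 highest and 42 of the 50 lowest kept their sign on array 1. Among the 500 highest of array 1 only 288 were positive on array 2, so equal signs were frequent at the ends of the distribution and not in its body. At least 0.3 from 0 in 1 direction on both arrays were 147 probes above (2.81%) and 118 below (2.26%), while 107 passed that size in opposite directions.

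**Figure D1:**
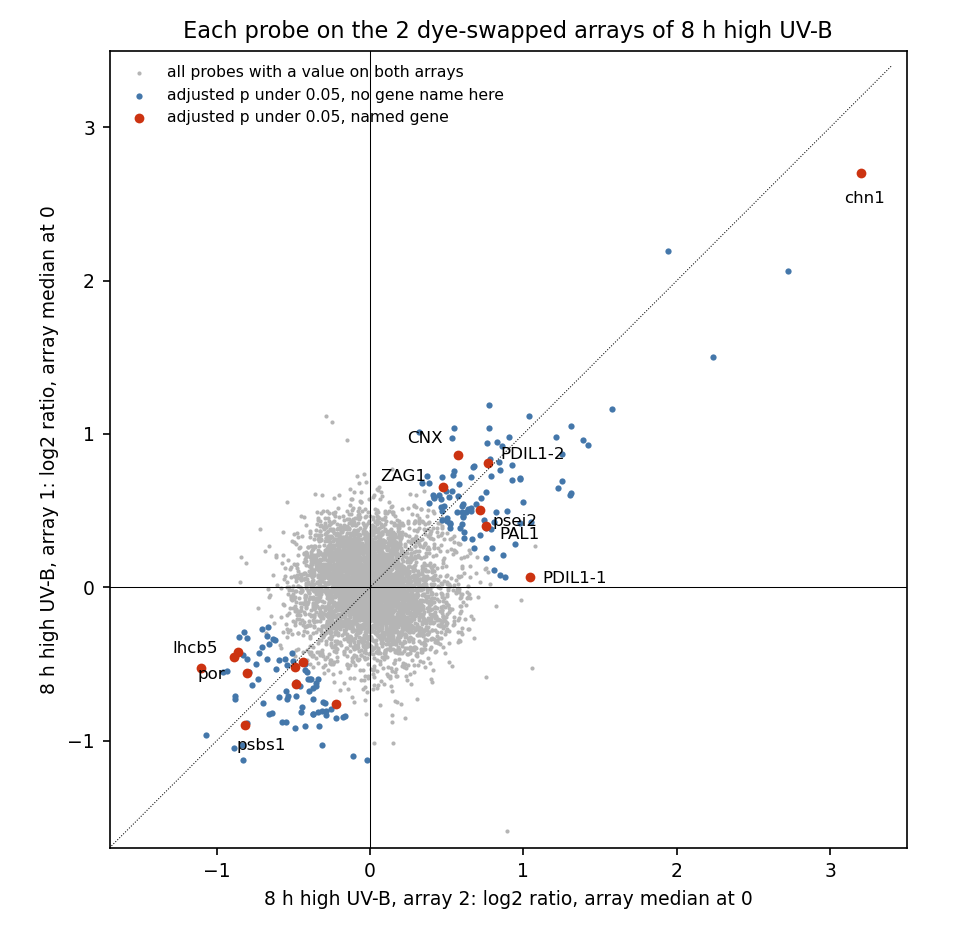
Log2 ratio of each probe on array 1 (vertical axis) against array 2 (horizontal axis), with unnamed calls in blue, named calls in red and the line of equal values dotted. The chitinase gene chn1 stands at 2.70 and 3.20, apart from every other probe, while the grey body of the cloud has no slope (Spearman's rho -0.014).

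Part of the disagreement followed the place of the probes on the array. Block 2 had a median of -0.21 on array 1 and 0.16 on array 2, block 5 had 0.17 and -0.16, block 3 had 0.13 and -0.10, and block 4 had -0.10 and 0.07. Across the 8 blocks the medians of the arrays ran against each other, with r at -0.883 as a description. With each block's median set to 0, Pearson's r over probes was 0.386, Spearman's rho 0.205 and the share of equal signs 54.8%. The number of calls was then 399, with 199 higher and 200 lower, and 187 of the 192 calls were among them, all 16 named ones included.

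**Figure D2:**
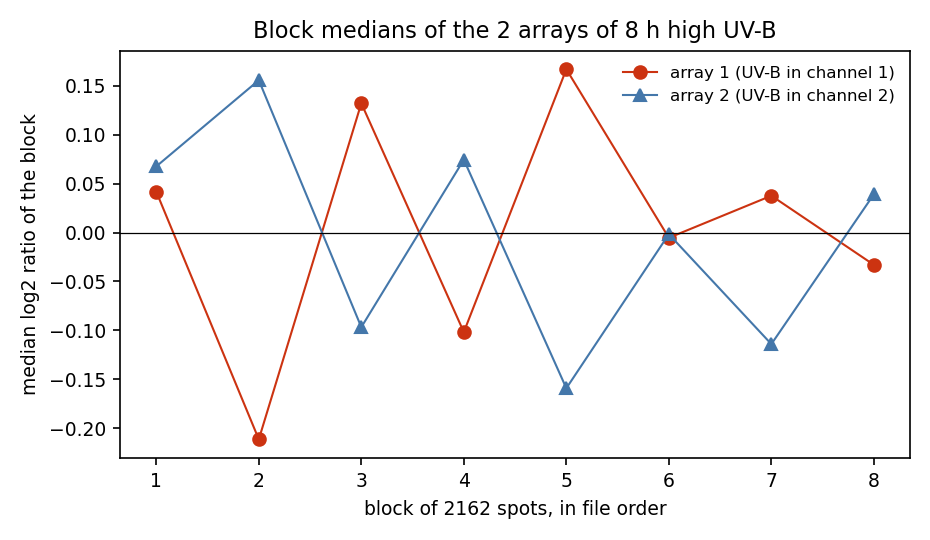
Median log2 ratio of each of the 8 blocks of spots (horizontal axis, file order) on array 1 (circles) and array 2 (triangles). The 2 lines mirror each other, most in block 2 (-0.21 and 0.16) and block 5 (0.17 and -0.16).

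Defence genes were led by chn1, which encodes a chitinase, an enzyme that cleaves the chitin of fungal cell walls. Its 3 spots read 2.75, 2.54 and 2.80 on array 1 and 3.12, 3.11 and 3.38 on array 2. All 6 spots were far above 0, and the probe ranked first of all probes on both arrays. The mean of the 2 arrays was 2.95 ± 0.146, a fold of 7.73 (adjusted p = 2.25e-19, limma). Here and below the SE comes from the fit of all 8 arrays and is not the spread of this pair alone. The cystatin gene psei2, an inhibitor of cysteine proteases, measured 0.51 and 0.71 on arrays 1 and 2. It rose by 0.61 ± 0.137 (SE, adjusted p = 0.00384), with 2 of its 3 spots present on array 1.

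The other defence probes lay nearer to 0. The related cystatin psei3 had 0.016 and 0.41, and the 2 probes of psei1 had 0.12 and -0.020 and -0.015 and 0.12, and neither gene passed. For PR-5, a thaumatin-like protein of the pathogenesis-related class, the arrays gave 0.19 and 0.14. One probe of hir1, a hypersensitive-induced reaction gene, had 0.28 and 0.46 and the other 0.42 and -0.14. The β-glucosidase gene glu1, which releases benzoxazinoid toxins, had -0.038 and -0.18 on one probe and -0.12 and 0.31 on the other. In all, 9 of 10 defence probes had a mean above 0 and 2 rose, against 2.0% of all probes, and the list's median was 0.15. This list and those below were chosen with earlier results of these data known. Their shares of calls are thus a description and no test of a pathway. Over all tested probes the median was 0.0019 and 50.5% were above 0.

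Cysteine proteases, the targets of cystatins, did not pass. The senescence-associated ccp2 had 0.049 and 0.44, and ccp1 had 0.13 and 0.47. A probe of mir3 was at 0.28 and 0.32, and a second one at -0.12 and -0.094. In their means the probes of ccp1 and ccp2 and the first one of mir3 lay between 0 and the risen calls, with the larger value on array 2. The second mir3 probe was below 0 on both arrays.

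Folding genes of the endoplasmic reticulum rose at 3 of 6 tested probes, against 2.0% of all probes, as a description of a list chosen with earlier results known. The disulfide isomerase gene PDIL1-2 measured 0.81 on array 1 and 0.77 on array 2, with the 6 spots between 0.75 and 0.85, so the arrays overlapped. Its mean was 0.79 ± 0.135 (SE, adjusted p = 9.71e-05), a fold of 1.73. The calnexin gene CNX measured 0.86 and 0.57, a mean of 0.72 ± 0.144 (SE, adjusted p = 0.000969). For PDIL1-1, another disulfide isomerase, the arrays did not agree: the spots of array 1 read 0.052, 0.0080 and 0.14, against 1.08, 0.99 and 1.07 on array 2. Its call (0.56 ± 0.145, SE, adjusted p = 0.0162) rests on array 2.

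Other members of the folding list did not pass. The calreticulin gene crt2, a soluble relative of calnexin, had 0.10 and -0.27. The isomerase-like PDIL5-4 was below 0 on both arrays, at -0.31 and -0.18 (adjusted p = 0.536). A second probe of PDIL1-2 had 0.25 and 0.065, so the tested probes of this gene differed by 0.63 in their means. Another one had 0.26 on array 1 and no value on array 2. Averaged on each array over all its probes with a value, the untested one included, PDIL1-2 was at 0.43 and lost its call. The derlin gene der4 and the sulfhydryl oxidase gene qsox1 had no value on either array. Among cytosolic and organelle chaperones hsp70-4 had -0.17 and 0.064 and HSP60-1 had 0.22 and -0.31, and neither passed.

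The phenylpropanoid pathway was represented by PAL1, whose product, phenylalanine ammonia-lyase, feeds the synthesis of flavonoids, sinapates and lignin. Its spots read 0.36, 0.39 and 0.45 on array 1 and 0.73, 0.76 and 0.78 on array 2, all above 0, with no overlap of the arrays. The mean was 0.58 ± 0.140 (SE, adjusted p = 0.0081). The probe is on plate 4 of the 60 source plates inferred from the order of the spots, whose probes had medians of 0.18 and 0.31 on the arrays and gave 20 of the 192 calls. After each plate's median was set to 0, the value of PAL1 was 0.34 and its call was lost. The part of the plate in its rise was not tested. A later enzyme of the pathway, 4CL, had 1 spot, on array 2 (0.64), and cncr1 of lignin synthesis had means of 0.15 and -0.062 on its probes.

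Transcripts of light harvesting and chlorophyll synthesis fell as 3 of 12 tested probes, against 1.69% of all probes. The largest fall of a named gene was that of psbs1, the photosystem II protein that triggers the safe release of excess light as heat. All its spots lay between -0.92 and -0.80 on both arrays, at means of -0.90 and -0.82. The mean of the arrays was -0.86 (SE 0.137, adjusted p = 3.13e-05), which is 1.81-fold lower. The minor antenna gene lhcb5 measured -0.53 and -1.10, a mean of -0.81 (SE 0.150, adjusted p = 0.000329). The gene por, for the light-dependent protochlorophyllide reductase of chlorophyll synthesis, measured -0.56 and -0.80, a mean of -0.68 (SE 0.148, adjusted p = 0.00277). For lhcb5 and por the lower value was on array 2, for psbs1 on array 1.

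The rest of the light reactions gave no call. The cyclic electron flow gene pgr5 had -0.54 and 0.016, the photosystem I subunit gene psan1 -0.081 and -0.33, and the thylakoid import gene hcf106 -0.0094 and -0.39. Some had opposite signs on the arrays: L-FNRI, the ferredoxin reductase, had -0.42 and 0.42, and a probe of the antenna gene Cab-m7 had -0.38 and 0.36. Both are in block 2, where the arrays' medians were -0.21 and 0.16. With block medians set to 0 the signs were still opposite, at -0.21 and 0.27 for L-FNRI and -0.17 and 0.20 for Cab-m7. The part of the block was not tested. The regulators crp1 and sig1 and the reductase gene ftr1 were within 0.12 of 0 in the mean. The median of the list was -0.13, and 9 of 12 means were below 0, of which 5 were below 0 on both arrays.

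Among genes of carbon fixation and its metabolite transport 1 of 11 tested probes fell, against 1.69% of all probes. No enzyme of the list passed. The called gene was pOMT1, a plastid transporter that exchanges 2-oxoglutarate and malate, at -0.46 and -0.89 on the arrays and -0.67 in the mean (SE 0.138, adjusted p = 0.00137). The partner dicarboxylate transporter pDCT1 had -0.078 and -0.36. PPDK, which makes the acceptor of C4 photosynthesis, had -0.36 and -0.20. The phosphoenolpyruvate carboxylase gene pep7 had -0.30 and -0.47, and the phosphoenolpyruvate transporter ppt1 -0.59 and -0.13. PPDK, pep7 and ppt1 were below 0 on both arrays but did not pass (adjusted p = 0.458, 0.133 and 0.166 in limma). Rubisco was not clear of 0: the small subunit gene rbcs1 had -0.39 and 0.29, and the activase gene rca1 -0.26 and -0.077. In all 9 of 11 means were below 0, with a median of -0.17.

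Starch and sucrose genes fell at 2 of 19 tested probes, against 1.69% of all probes. Agp2, a small subunit of ADP-glucose pyrophosphorylase, which commits glucose to starch, measured -0.63 and -0.49. Its mean was -0.56 (SE 0.138, adjusted p = 0.0104). The starch synthase gene du1 measured -0.49 and -0.44, a mean of -0.46 (SE 0.138, adjusted p = 0.0458), close to the threshold. It lost its call with plate medians set to 0 (-0.34), with the median of the spots in place of their mean, and when any 1 of the 4 arrays of the 2 h and 4 h regimes was left out.

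Both steps of sucrose synthesis were below 0 on both arrays without passing. The sucrose-phosphate synthase gene sps1 had -0.41 and -0.47 (adjusted p = 0.062). The sucrose-phosphatase gene spp1 had -0.42 and -0.34 on one probe (adjusted p = 0.126) and -0.49 and -0.11 on the other. The pyrophosphorylase large subunit gene sh2 had -0.25 and -0.41, with 1 spot on array 2. A second probe of Agp2 had -0.0043 and -0.42, and with both averaged Agp2 was at -0.38 and did not pass. Enzymes that cleave sucrose did not pass either, with sus1 and sus2 within 0.10 of 0 in the mean. The invertase ivr2 had -0.25 and -0.20 on one probe, a mean of -0.22 and below the list's median, and a mean of -0.049 on the other. Of the 19 probes 13 had a mean below 0 and 10 were below 0 on both arrays, against 23.0% of all probes, and the median was -0.16.

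**Figure D3:**
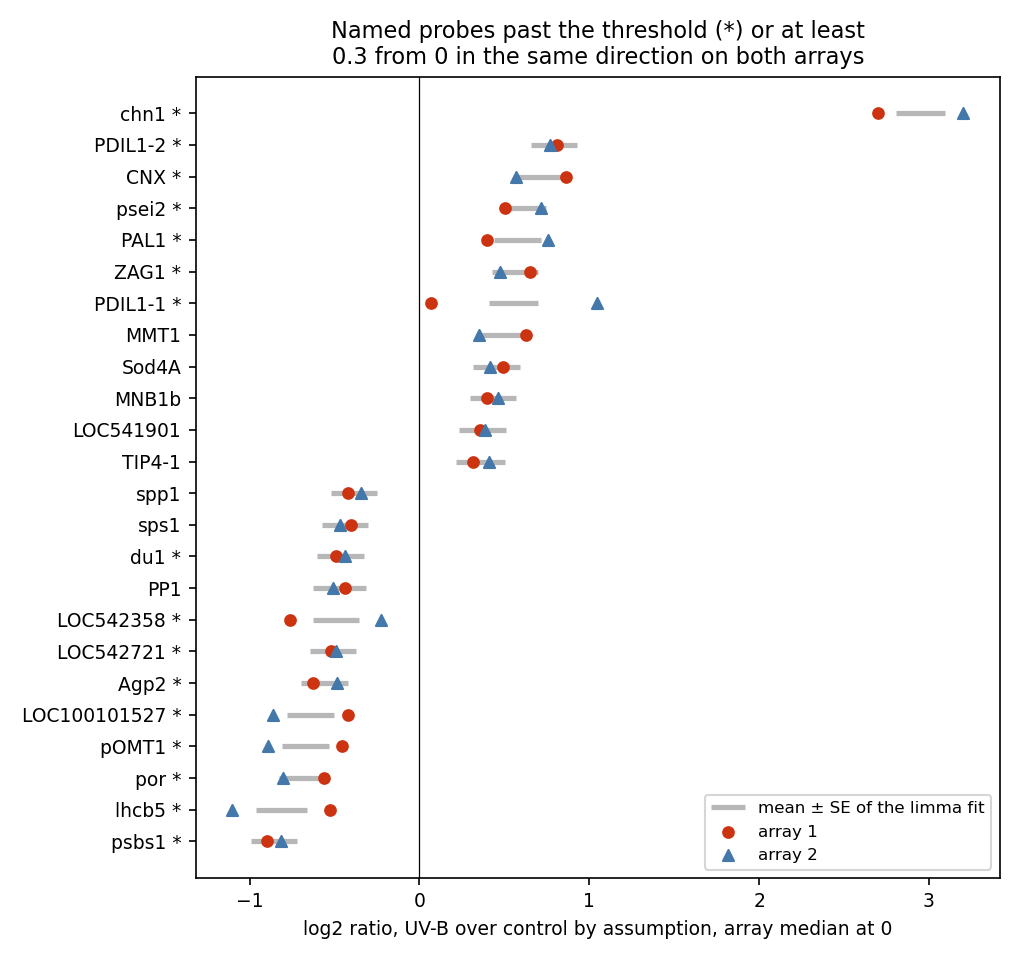
Log2 ratios of array 1 (circles) and array 2 (triangles) with the fitted mean ± SE (bars) for the 24 named probes that passed the test (starred) or lay at least 0.3 from 0 in 1 direction on both arrays. The symbols of psbs1, PDIL1-2, du1 and LOC542721 nearly coincide, while those of PDIL1-1 (0.067 and 1.04) are far apart.

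The MADS-box gene ZAG1, which acts in carpel and stamen identity, was the 1 call among 23 transcription factor probes, a share near the 3.69% of all probes. Its spots read 0.65, 0.65 and 0.66 on array 1 and 0.50, 0.50 and 0.43 on array 2. The mean was 0.56 ± 0.138 (SE, adjusted p = 0.00924). Other MADS-box genes did not share this: zmm16 had -0.093 and -0.25, m28 had 0.26 and -0.088, ZAG3 had -0.43 and 0.089, and Silky1 had 0.33 and -0.081. The lowest mean of the list was that of GRF2, at -0.30. The bZIP gene OBF1 had -0.35 and -0.13, and the phenylpropanoid regulator myb31 had 0.12 and 0.20. The list had 12 means above 0 and 11 below, with a median of 0.0100.

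Genes known by number only made up the other 3 calls. LOC100101527 had -0.42 and -0.86 on the called probe (mean -0.64, adjusted p = 0.00275) and -0.29 and -0.070 on a second probe. LOC542721 had -0.52 and -0.49 (mean -0.51, adjusted p = 0.0192). LOC542358 had -0.76 and -0.22 (mean -0.49, adjusted p = 0.0257) and is in block 2, where array 1 lay at -0.21. It lost its call when any 1 of the 4 arrays of the 2 h and 4 h regimes was left out.

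Oxidative stress and detoxification genes gave 0 calls among 13 probes in limma, a number too small to set apart from the 3.69% of all probes. The superoxide dismutase gene Sod4A had 0.49 and 0.41 (adjusted p = 0.062), with 1 spot on array 2. The safener-induced In2-1 had 0.74 and, from 1 spot, -0.039, the glutathione transferase GST39 0.44 and 0.043, and the glutathione synthetase gene gsh2 0.50 and -0.054. The catalase gene cat1 had 0.26 and -0.46. Thus 10 of 13 means were above 0, at a median of 0.023, but array 1 carried most of the larger values and 3 probes were above 0 on both arrays.

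A few genes of other groups were at least 0.3 from 0 on both arrays without passing. The methionine methyltransferase gene MMT1, which makes S-methylmethionine, had 0.63 and 0.35 (adjusted p = 0.069). The HMG-box chromatin protein gene MNB1b had 0.40 and 0.47 (adjusted p = 0.067) and the tonoplast aquaporin TIP4-1 0.31 and 0.41 (adjusted p = 0.224). LOC541901 had 0.36 and 0.39 (adjusted p = 0.158). The protein phosphatase PP1 had -0.44 and -0.51 (adjusted p = 0.087), while a second probe of it had 0.035 and 0.50. Of 377 named probes with a value on both arrays, 11 were at least 0.3 above 0 on each and 11 below, and 7 passed that size in opposite directions.

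Housekeeping and growth groups lay near 0 in their medians. Translation genes had 7 of 13 means above 0 and a median of 0.041, with rpl39 the highest (0.62 and 0.070) and EIF5 the lowest (-0.40 and -0.10). Cell wall genes ranged in the mean from -0.15 (CesA-6) to 0.10 (kds1), and 1 of 15 had the same sign on both arrays. Chromatin genes had 12 of 24 means above 0, and nitrogen genes 7 of 10, at a median of 0.055 and at most 0.14 from 0. Aquaporins ranged from -0.38 (TIP2-1) to 0.36 (TIP4-1) at a median of -0.012. These 5 lists had 0 members past the threshold in limma, where 3.69% of all probes passed. Each list has too few probes to set this apart from that share.

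**Figure D4:**
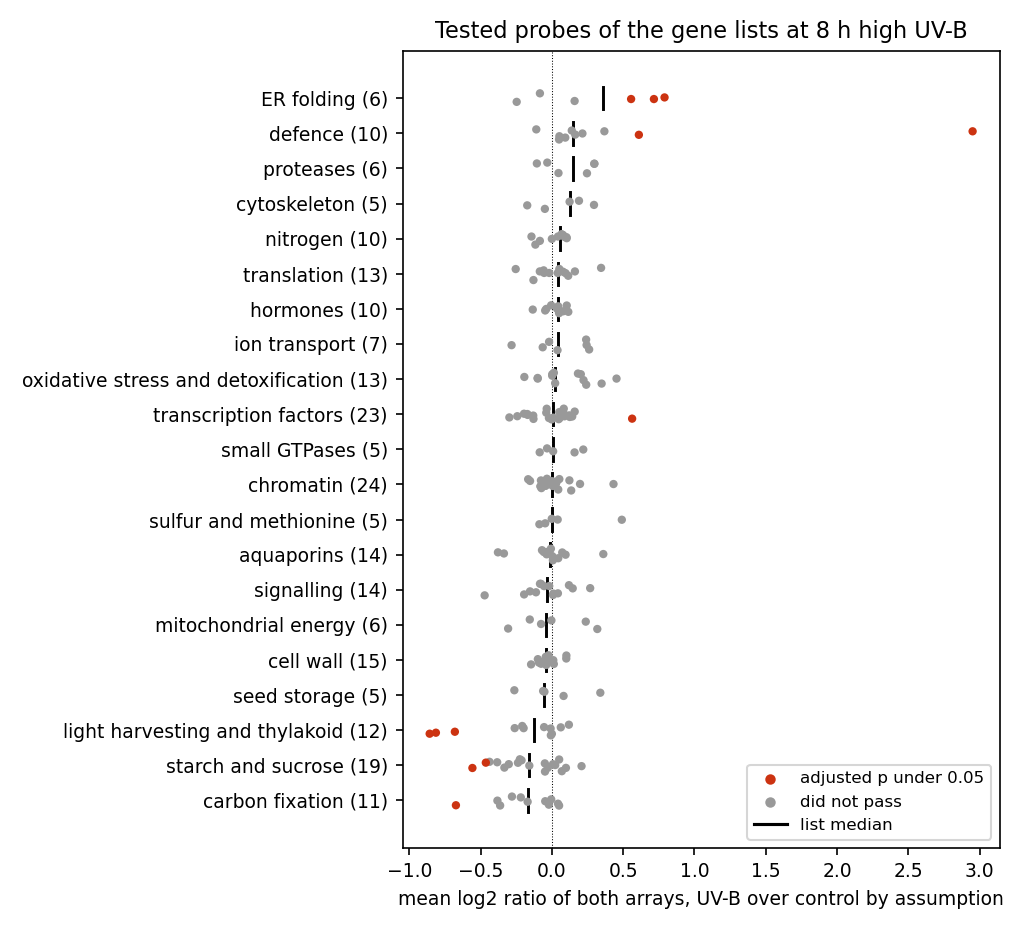
Mean log2 ratio (horizontal axis) of each tested probe in the 21 gene lists with at least 5 tested probes, with calls in red, other probes in grey and list medians as bars. Lists of folding and defence genes have their red points to the right of 0. Those of light harvesting, starch and sucrose, and carbon fixation (the transporter gene pOMT1 only) have theirs to the left.

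Since the labels name no organ, genes of seed and flower were set beside those of leaf. A ratio array gives no level, so it cannot show which organ the RNA came from. The seed globulin gene glb1 had 0.63 and 0.048 on one probe and 0.076 and -0.20 on the other, glb2 had means of -0.052 and 0.082, and the legumin-like leg1 had -0.015 and -0.51. None of these seed genes passed the test. Among the flower genes ZAG1 passed, at 0.65 and 0.47 on the arrays, while zmm16 and m28, given above, did not. Zea m 3 had -0.24 and 0.21 and did not pass. Fewer cells of a type and less RNA per cell cannot be told apart in such bulk samples, which touches the falls of the photosynthesis genes above.

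Some of the largest rises belong to probes with no gene name here. At least 2-fold above 0 on both arrays were 7 probes (0.134%), namely chn1 and 6 unnamed ones, and 0 were at least 2-fold below on both. The probe at position 4 of block 1 had 2.07 and 2.72, position 688 of that block 2.19 and 1.94, position 10 1.50 and 2.24, and position 136 1.16 and 1.57. Position 241 of block 6 had 1.05 and 1.31, and position 70 of block 7 had 1.12 and 1.04. On array 1 chn1 ranked first and these block 1 probes at positions 688, 4 and 10 next, and on array 2 positions 4, 10 and 688 followed chn1. Positions 4 and 10 of block 1 are on inferred plate 1, which gave 14 calls among 68 probes. Position 688 of that block is on plate 58, which gave 13 among 70. The part of the plate in these rises was not tested. At the probe of position 688 of block 1, 1 spot of array 2 read 0.99 beside 2.41 and 2.44. The largest fall was at position 161 of block 8, with -0.97 and -1.07.

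Genes with more than 1 tested probe show how far a value depends on the probe. There were 55 such genes, the median gap between the highest and the lowest probe of a gene was 0.15, and the widest was 0.74 (PP1). For 0 of the 55 did every tested probe pass in limma. For Agp2, PDIL1-2 and LOC100101527, the called genes among them, the second probe had the same sign and a smaller value.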

How the data were processed

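The deposited table holds log2 ratios of the 2 channels for 8 arrays in 4 regimes of 2. For the authors' background correction, normalization and filters, no step is stated: not given in the sources used here. That the log base is 2 was read from the values: on the 8 h high arrays 39.3% and 26.1% of repeated values were log2 ratios of small whole numbers plus a constant, against 3.57% and 4.35% for the natural log. Gene names came from the platform annotation. Of 329 genes 314 were found in the RefSeq gene table (assembly Zm-B73-REFERENCE-NAM-5.0), which served to update symbols, and 16078 spots are unnamed here. No sequences were used.

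Spots were centred and averaged as described, and all 8 arrays were fitted in limma 3.58.1 (R 4.3.3) with 4 regime means and a term for channel orientation (3 residual degrees of freedom, prior 39.62). The regimes share 1 spread, and only the 8 h high mean was tested against 0, with Benjamini-Hochberg adjustment at 0.05. An SE is thus not the spread of the 8 h high pair alone. Estimated array weights, which are larger for arrays that vary less, were 0.493 for 8 h high UV-B. They were 3.169 for 2 h high, 2.528 for 4 h medium and 0.253 for 8 h low UV-B. With these weights 114 probes passed, so the SE and p-values of the unweighted fit can be too small for this pair. Orientation coincides with the replicate number of the titles. The half-differences of the 6 pairs of regimes correlated at 0.196 to 0.557, so same-numbered arrays deviate together. The test was checked on simulated data, in which a probe had the same spread on every array and no block or plate effects. That check cannot show how the test behaves for arrays of unequal spread. Plates were inferred as 12 positions in each of 8 blocks. Named are probes past the threshold, those at least 0.3 from 0 in 1 direction on both arrays, and further probes of called genes. Unnamed probes at least 2-fold from 0 on both arrays are also given. The extremes were named for some lists only. Lists of cytoskeleton, hormone, ion transport, mitochondrial energy and small GTPase genes are not described in the text. Some extremes of described lists, such as GBSSIIa, TPT and MRP2, were left out as well. Other list members were named after their values were seen, to describe their list. The members and lists were chosen with earlier results of these data known; genes were put in 24 lists by function. The alternatives are given at the end.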

Additional observations from a re-analysis of the deposited data

How the results depend on the processing

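The count of 192 calls depended on the fit. It was 45 with no replicate block (no orientation term), 110 with the 2 arrays of 8 h high UV-B alone, 399 after centring each block on its median, 114 with array weights and 0 with the swapped arrays turned. Leaving out 1 array gave 3 to 291, namely 10 without 8 h high array 1, 3 without array 2, 291 without either 8 h low array, and 157 or 158 without any other; a lone array was assumed to vary like the other regimes. It was 186 with plate medians set to 0, 201 as deposited, 284 with scale normalization, 192 of 3946 probes with complete triplicates, 197 with spot medians and 187 after averaging all probes of each gene. Of the 16 named calls 3 were kept without the orientation term, 10 in the pair alone, 11 with array weights, and 16 with blocks centred, as deposited, and under scale normalization. With the swapped arrays turned, a value follows from array 1 minus array 2, so its sign shows only which array was higher. It was opposite to the reported one for chn1 (-0.25), psei2 (-0.10), PAL1 (-0.18), PDIL1-1 (-0.49), por (0.12), lhcb5 (0.29), LOC100101527 (0.22) and pOMT1 (0.22). The unnamed probes at positions 4 (-0.33), 10 (-0.37) and 136 (-0.21) of block 1 and 241 of block 6 (-0.13) had the opposite sign as well. The cause of the other shifts was not tested. Dim spots could not be filtered, and 2 arrays are too few for an exact permutation test of 1 probe to reach 0.05.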

Other observations

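Named probes that were at least 0.3 from 0 in opposite directions on the 2 arrays were Acc-1 (0.34 and -0.34), Cab-m7 (-0.38 and 0.36), INO1 (0.33 and -0.47), L-FNRI (-0.42 and 0.42), m4 (0.60 and -0.31), nfa101 (0.40 and -0.33) and phi1 (-0.35 and 0.32). Their means ranged from -0.071 to 0.14.

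Calls were uneven over the inferred source plates. Plate 4 gave 20 calls among 90 probes with a value on both arrays, plate 1 gave 14 among 68 and plate 58 gave 13 among 70. The medians of plate 1 were 0.033 and 0.042 and those of plate 58 were 0.055 and -0.089, against 0.18 and 0.31 on plate 4. The part of the plate in these counts was not tested.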
